A study of Homo sapiens with 24 samples.

Results

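The mRNA levels of 53 genes that encode pre-mRNA splicing factors were followed across 8 groups of cultured HCT116 cells, a human colorectal cancer line. The genes were taken by symbol from the 37967 genes of the deposited tables: 12 SR protein genes (SRSF followed by a number), 20 genes of heterogeneous nuclear ribonucleoproteins (HNRNP), 9 genes of the SF3A and SF3B complexes and 12 PRPF genes. PRPF4B is listed under the symbol PRP4K and was not a member. Of the 53 genes, 52 were tested. SRSF12 did not pass the filter on low counts, with 0 to 8.3 counts in a sample, not normalized.

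Cells of the parental HCT116 line and of HCT116 oxpl-R, a resistant line that the study derived from it by repeated exposure to oxaliplatin, were each kept in 4 conditions. Both lines carried the TetOn-E1A transgene, designed so that doxycycline induces the adenovirus protein E1A. Reads were quantified on human transcripts, so the level of E1A was not measured here. Control cells received neither agent. E1A cells received 0.5 µg/mL doxycycline. Oxaliplatin cells received 25 µM of this DNA-crosslinking platinum drug for 24 h. E1A + oxaliplatin cells received doxycycline 3 h before the same dose of the drug. Each group had 3 samples, labelled as biological replicates, 24 in all. Cells without the transgene were given no doxycycline, so effects of doxycycline and of E1A cannot be told apart. HCT116 oxpl-R was 1 derived line, so its resistance and its other properties cannot be told apart either.

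Splicing removes introns from pre-mRNA. SR proteins bind exons through RNA recognition motifs and recruit the splicing machinery through domains rich in arginine and serine, while hnRNP proteins coat nascent transcripts and often oppose the use of splice sites. SF3A and SF3B are parts of the U2 small nuclear ribonucleoprotein (snRNP), which recognizes the branch point, and SF3B1 within it contacts the branch point region. The PRPF genes include PRPF8, the core of the catalytic spliceosome, PRPF3, PRPF4, PRPF6 and PRPF31 of the U4/U6.U5 tri-snRNP, and PRPF19, a ubiquitin ligase that gives its name to a complex needed for activation. Many SR and hnRNP genes also control their own mRNA through exons that expose it to nonsense-mediated decay.

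The promoters of 7 of the genes are shown, which are named in the comparisons that follow and come from all 4 families. Each run is the 150 bases before the RefSeq start of the gene on GRCh38.p14, written 5′ to 3′ on the strand of the gene. It has 0 bases in common with the gene as annotated by GENCODE. For HNRNPD and SRSF5, which led their families in some comparisons and are not shown, all 150 bases lie inside the annotated gene. Capitals mark matches on either strand to CCAAT, the ETS motif CCGGAA, the NRF1 motif (GCGC, any 2 bases and GCGC again), the E-box CACGTG or the YY1 motif AAGATGG.
HNRNPH1 (chr5:179634785-179634934, minus strand): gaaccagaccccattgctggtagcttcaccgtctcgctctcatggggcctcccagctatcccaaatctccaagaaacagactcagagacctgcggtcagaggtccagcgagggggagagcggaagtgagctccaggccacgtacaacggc
HNRNPH2 (chrX:101408072-101408221, plus strand): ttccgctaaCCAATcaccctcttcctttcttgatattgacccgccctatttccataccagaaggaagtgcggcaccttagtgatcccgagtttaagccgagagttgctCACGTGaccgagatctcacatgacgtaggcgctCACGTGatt
SRSF7 (chr2:38751495-38751644, minus strand): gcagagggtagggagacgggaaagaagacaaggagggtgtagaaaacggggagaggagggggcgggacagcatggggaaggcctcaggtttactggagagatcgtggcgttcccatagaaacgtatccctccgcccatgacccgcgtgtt
SF3B4 (chr1:149927804-149927953, minus strand): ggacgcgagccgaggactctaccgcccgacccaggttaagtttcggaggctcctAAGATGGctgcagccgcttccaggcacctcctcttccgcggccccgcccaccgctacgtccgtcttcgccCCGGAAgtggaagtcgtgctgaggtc
SF3B5 (chr6:144095574-144095723, minus strand): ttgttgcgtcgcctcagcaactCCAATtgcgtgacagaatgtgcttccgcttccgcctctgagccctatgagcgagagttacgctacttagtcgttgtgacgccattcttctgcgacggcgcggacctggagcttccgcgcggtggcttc
SF3A2 (chr19:2236674-2236823, plus strand): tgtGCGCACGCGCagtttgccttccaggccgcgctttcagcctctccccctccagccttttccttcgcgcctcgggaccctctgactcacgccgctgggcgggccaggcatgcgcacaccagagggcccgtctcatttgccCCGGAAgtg
PRPF8 (chr17:1684868-1685017, minus strand): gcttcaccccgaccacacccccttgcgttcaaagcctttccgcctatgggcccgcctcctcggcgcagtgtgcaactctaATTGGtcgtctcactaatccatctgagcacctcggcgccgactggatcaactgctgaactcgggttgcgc
HNRNPH2 and its close relative HNRNPH1 differed in these letters, with 1 CCAAT and 2 E-box matches against 0. SF3B4 held an ETS and a YY1 match, SF3A2 an ETS and an NRF1 match, and SF3B5 and PRPF8 held a CCAAT match each and SRSF7 none. Promoters were on record for 47 of the 53 genes. The ETS motif lay in 6 of 8 SF3 promoters (SF3A1, SF3A2, SF3A3, SF3B2, SF3B4 and SF3B6), 3 of 9 PRPF, 3 of 19 HNRNP and 1 of 11 SRSF promoters. It was found in 27.7% of the 47 promoters and in 11.5% of the 27305 promoters of all genes, counted over the same 150 bases. The 27305 were not limited to genes expressed in these cells. For the NRF1 motif the shares were 21.3% and 6.4%, for CCAAT 36.2% and 24.4%, and for the E-box 12.8% and 4.7%. TATAAA was about as frequent in the members (6.4%) as in all promoters (7.0%), and the cyclic AMP element TGACGTCA was found in 0.0% against 1.5%. For TTTCCCGC, the E2F motif, the shares were 2.1% and 0.9%, and for the YY1 motif 4.3% and 2.1%. These matches describe letters in a window and no binding of a factor.

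RNA was sequenced as mRNA libraries of paired reads, and the deposited counts summed to 24838095 to 37927720 per sample. Counts of marker genes are given without normalization. Epithelial genes of the colon such as EPCAM (4233 to 11124 counts) were expressed in every sample, while KRT20, CDX1, CEACAM5, CEACAM6 and LGR5 reached at most 79.7. Summed leukocyte markers reached at most 36.4 and summed endothelial markers 101.7 counts, whereas fibroblast markers, mostly COL1A1, summed to 460 to 2132. CDKN1A, a target of p53, rose after oxaliplatin in HCT116 (log2 fold change, log2FC, 3.78) and in HCT116 oxpl-R (2.87, and 2.77 without the library named next). One library stood apart: mitochondrial genes took 1.38% of the counts in replicate 1 of HCT116 oxpl-R oxaliplatin and 11.0 to 19.7% in the others, so the counts of called members that use it are also given without it.

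The 4 families together took 1.55 to 1.65% of the counts of a library in HCT116 control cells and 0.966 to 1.07% after oxaliplatin. In HCT116 oxpl-R they took 1.26 to 1.42% in control cells and 0.870 to 1.20% after oxaliplatin, where 1.20% was the library of low mitochondrial share and the other two lay at 0.870 and 0.978%. The HNRNP genes held most of this share. They took 0.969 to 1.06% in control and 0.522 to 0.581% in oxaliplatin samples of HCT116, and lay at 0.785 to 0.896% and 0.478 to 0.716% in the control and oxaliplatin cells of HCT116 oxpl-R, the latter 0.478 to 0.601% without that library. The SRSF genes took 0.262 to 0.279% in HCT116 control and 0.168 to 0.182% in HCT116 oxaliplatin cells. The SF3 genes, by contrast, took 0.170 to 0.176% and 0.161 to 0.177% in these groups and 0.122 to 0.132% in control cells of HCT116 oxpl-R. The PRPF genes likewise took 0.136 to 0.144% in HCT116 control and 0.0946 to 0.103% in HCT116 oxpl-R control cells. These shares are given without a test.

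Much of the HNRNP and SRSF families was lower after oxaliplatin in HCT116. Of 52 tested members, 19 fell and 1 rose at an adjusted p-value below 0.05 (edgeR quasi-likelihood test, Benjamini-Hochberg adjustment over all tested genes). Among all 14330 tested genes, 11.9% fell and 19.9% rose. The median log2FC was -0.40 over the members and 0.001 over all genes. It was -0.69 for HNRNP, -0.64 for SRSF, -0.205 for PRPF and 0.08 for SF3. Mitochondrial genes took 11.7 to 14.9% of the counts in control and 17.1 to 19.5% in oxaliplatin samples. Of 8 tested colon epithelium markers, KRT8, KRT18, KRT19 and CDX2 rose. The 11 listed markers summed to 186934 to 196541 counts in control and 326504 to 345606 in oxaliplatin samples, not scaled for library size. Their part in the result was not tested. In bulk RNA scaled to its library, a lower level in each cell and fewer cells that hold the RNA cannot be told apart.

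HNRNP genes made up 12 of the 19 that fell, and 19 of 20 had a negative log2FC. HNRNPA1, an abundant silencer of exons, had 44972, 42225 and 35933 normalized counts in control and 10126, 12961 and 15743 in oxaliplatin samples. The groups did not overlap, and the log2FC was -1.67 ± 0.37 (SE, adjusted p = 0.00211). HNRNPA2B1, its close relative, which also sorts RNA into vesicles, had 35255, 33166 and 30276 normalized counts in control and 10346, 12445 and 14937 in oxaliplatin samples (log2FC -1.39 ± 0.24, adjusted p = 0.000272). HNRNPA3 changed by -1.38 ± 0.25 (adjusted p = 0.00039). None of these genes overlapped between control and oxaliplatin samples.

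HNRNPR, a protein of the nucleus and of axons (1:23303771-23344336, minus strand, 11 exons), had the lowest adjusted p of the family. It had 10425, 9773 and 9804 normalized counts in control and 3868, 4219 and 4674 in oxaliplatin samples (log2FC -1.23 ± 0.20, adjusted p = 0.000149). Its samples were far apart relative to the spread within each group. The genes of HNRNPH1, H2 and H3, proteins that bind runs of guanine, fell together with log2FC of -1.15, -1.05 and -1.08. The AU-rich element binders HNRNPD (-0.65) and HNRNPDL (-1.09), the poly(C) binder HNRNPK (-0.85), HNRNPF (-0.66) and the scaffold protein HNRNPU (-0.73) completed the 12. HNRNPC, which binds uridine runs and packages nascent RNA, had a log2FC of -0.59 with an adjusted p of 0.247 and was not called, and HNRNPUL1 alone was above 0, at 0.04.

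Of 11 tested SRSF genes, 6 fell. SRSF7 (2:38743599-38751494, minus strand, 8 exons), which couples splicing to export of mRNA, had 6008, 5268 and 5054 normalized counts in control and 2080, 2195 and 2420 in oxaliplatin samples (log2FC -1.29 ± 0.31, adjusted p = 0.00388). SRSF3, the smallest SR protein, had 13810, 12278 and 11373 and then 5024, 5866 and 4844 (log2FC -1.25 ± 0.33, adjusted p = 0.00709). Neither gene overlapped between the groups. SRSF1 (-0.88), the founding SR protein, SRSF5 (-0.87), SRSF10 (-0.85), which represses splicing when dephosphorylated, and SRSF11 (-0.64) also fell. The log2FC of SRSF2, SRSF4, SRSF6, SRSF8 and SRSF9 lay between -0.38 and 0.28 and did not pass the test.

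SF3B5, the smallest SF3B subunit, was the only member that rose. This gene of a single exon (6:144094884-144095573, minus strand) had 5044, 4710 and 5624 normalized counts in control and 12768, 10318 and 8367 in oxaliplatin samples. Every oxaliplatin sample was above every control sample, and the log2FC was 1.03 ± 0.22 (adjusted p = 0.00146). The other 8 SF3 genes did not pass the test, with values from -0.56 for SF3B1 to 0.61 for SF3B6. SF3B6 had 9838, 10113 and 2510 normalized counts after oxaliplatin against 4738, 4414 and 5581 in control samples, so replicate 3 lay on the other side of the controls. In the PRPF family PRPF4, a U4/U6 snRNP protein, alone fell, with 3418, 3342 and 3353 normalized counts in control and 2092, 2201 and 2519 in oxaliplatin samples (log2FC -0.57 ± 0.16, adjusted p = 0.00836). Leaving out 1 library at a time left 16 to 24 members called, and 16 of the 20 were called in every such fit. HNRNPD, SRSF5, SRSF10 and SRSF11 were the 4 that lost the call in at least 1 of them.

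**Figure D1:**
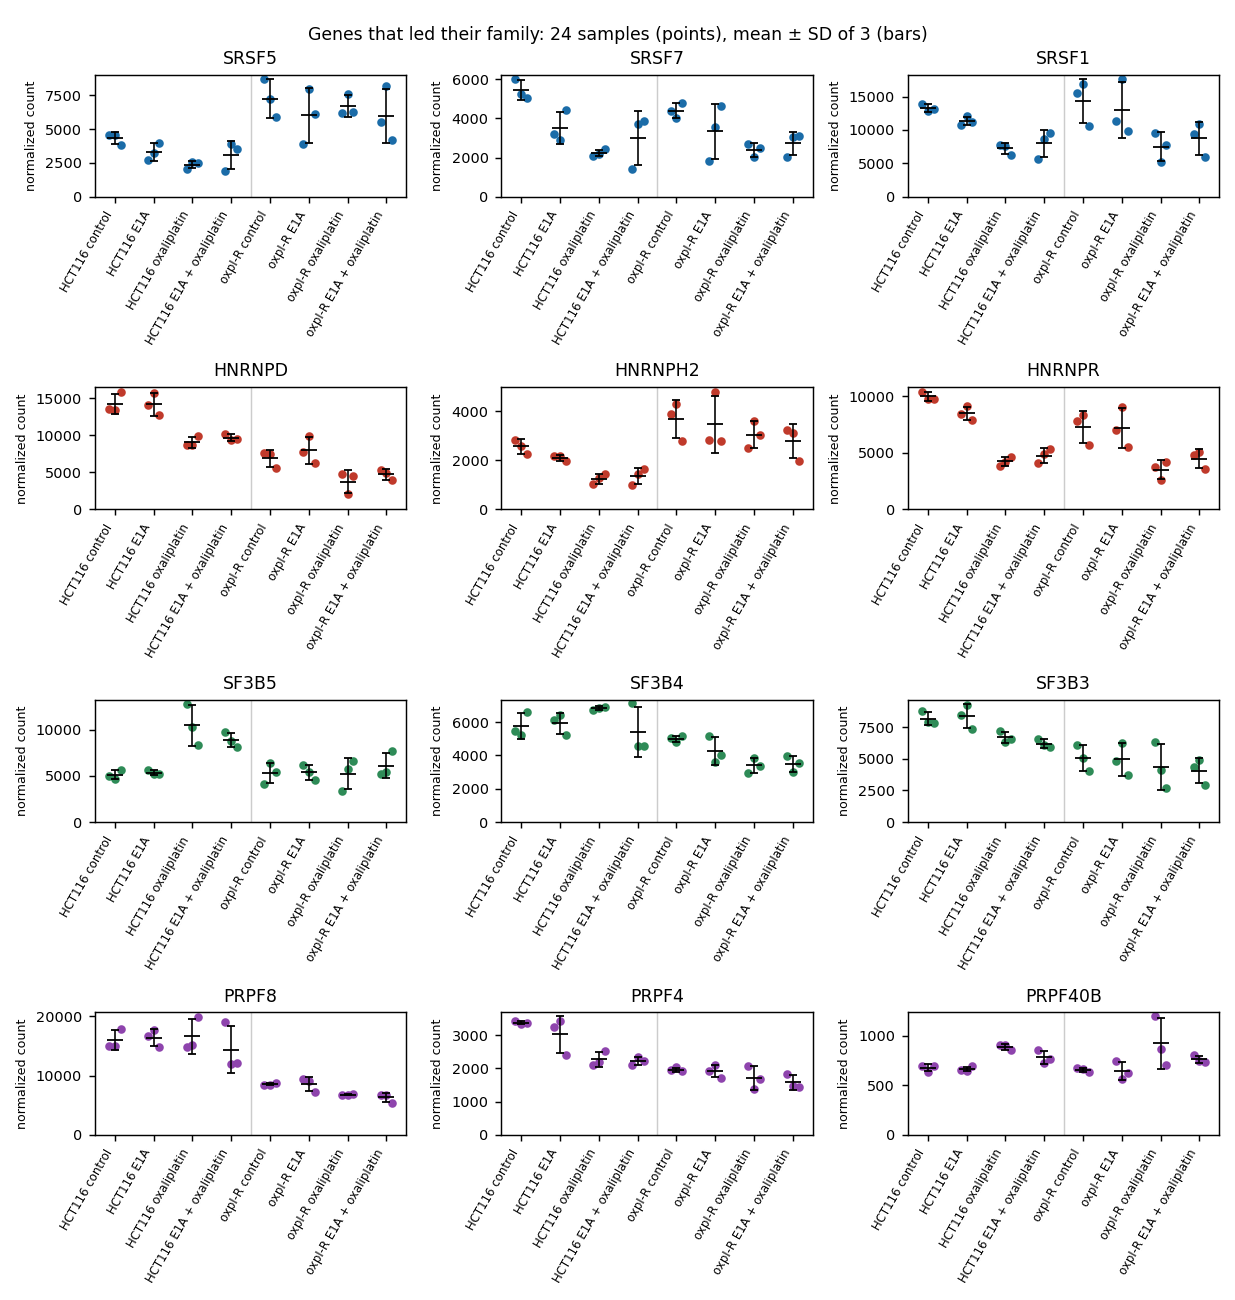
Normalized count (y axis, from 0) of the 12 members that led their family in the most comparisons, in each of the 24 samples, by group (x axis); points are samples and bars give the mean ± SD of 3. In HCT116 SF3B5 lies higher after oxaliplatin (8367 to 12768) than in control samples (4710 to 5624), while HNRNPR and SRSF7 lie lower.

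With doxycycline present in both groups, oxaliplatin gave fewer calls in HCT116. Of the 52 members 6 fell and 1 rose, while 6.43% of all genes fell and 10.8% rose. HNRNPA3 led the 6 (log2FC -0.90 ± 0.25, adjusted p = 0.0159), which also held HNRNPA2B1 (-0.76), HNRNPF (-0.51), HNRNPH1 (-0.87), HNRNPR (-0.83) and HNRNPU (-0.69). SF3B5 again was the one that rose (0.74 ± 0.22, adjusted p = 0.0248). All 7 had the same direction without doxycycline, in separate samples. All 20 HNRNP genes had a negative log2FC, with a median of -0.48 against 0.04 over all genes. HNRNPR had 8483, 9117 and 7904 normalized counts in E1A and 4099, 4874 and 5344 in E1A + oxaliplatin samples, with no overlap. SF3B5 had 5629, 5202 and 5184 against 9749, 8782 and 8181, again with no overlap.

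No SRSF gene passed the test in this comparison, and the family median was -0.23. SRSF7 had 3225, 2889 and 4438 normalized counts in E1A samples and 1428, 3706 and 3877 in E1A + oxaliplatin samples. Replicate 1 was low in the second group and the groups overlapped (log2FC -0.23, adjusted p = 0.682). Whether the response to oxaliplatin differed with doxycycline was not tested. The count fell to 3 without replicate 1 or 2 of HCT116 E1A and to 4 without replicate 2 of HCT116 E1A + oxaliplatin. HNRNPH1 and HNRNPR were called whichever library was left out.

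**Figure D2:**
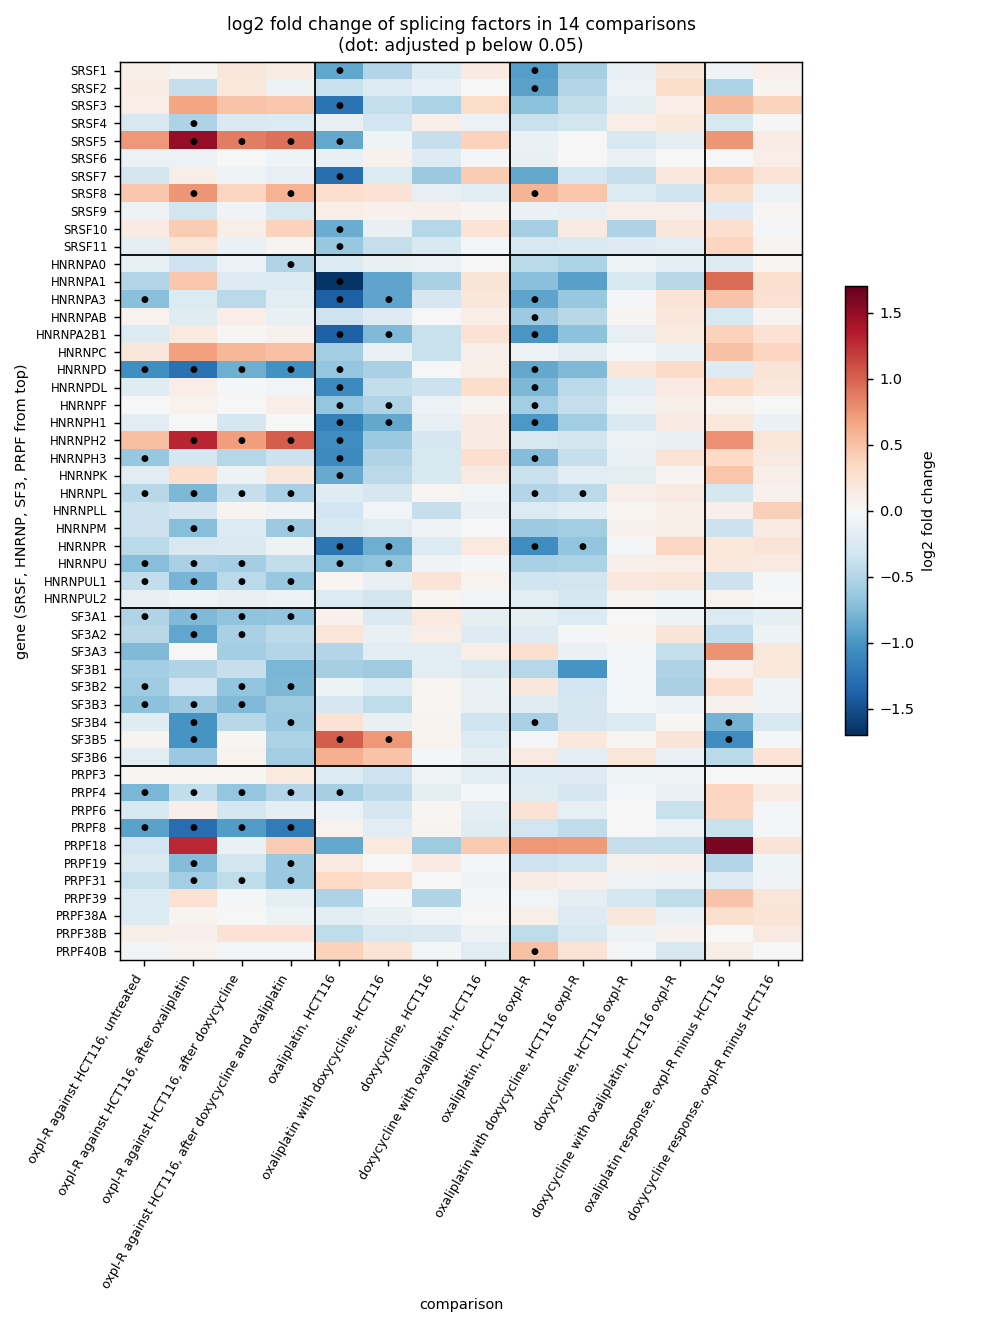
Log2FC (color scale) of the tested members except 1 (y axis, by family) in 14 comparisons (x axis); a dot marks an adjusted p-value below 0.05. In the columns for oxaliplatin in HCT116 most HNRNP and SRSF genes are below 0 and SF3B5 is above it, and the 5 columns for doxycycline hold no dot.

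In HCT116 oxpl-R 13 members fell and 2 rose after oxaliplatin, against 5.72% and 6.9% of all genes. The medians were -0.61 for HNRNP, -0.38 for SRSF, -0.15 for SF3 and 0.03 for PRPF, and all 20 HNRNP genes were below 0. Mitochondrial genes took 11.0 to 14.4% of the counts in control samples and, in the oxaliplatin samples other than the one of low share, 15.4 to 19.7%. KRT8, KRT18 and KRT19 rose and CEACAM5 fell among the colon markers. These markers summed to 200287 to 218658 counts in control and 277218 to 438167 in oxaliplatin samples, not scaled for library size. Their part in the result was not tested. HNRNPR had 7795, 8373 and 5719 normalized counts in control and 3754, 2564 and 4235 in oxaliplatin samples (log2FC -1.05 ± 0.20, adjusted p = 0.000939). SRSF2, an SR protein that binds both C-rich and G-rich exon motifs, had 20343, 22947 and 18709 in control and 11665, 10740 and 10457 in oxaliplatin samples (log2FC -0.92 ± 0.17, adjusted p = 0.000832). Both genes were lower in every treated sample. The other HNRNP genes that fell were A2B1 (-0.99), A3 (-0.90), AB (-0.62), D (-0.88), DL (-0.77), F (-0.60), H1 (-0.98), H3 (-0.74) and L (-0.50).

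SRSF1 had 15503, 16892 and 10562 normalized counts in control and 9468, 5239 and 7806 in oxaliplatin samples of HCT116 oxpl-R, with no overlap (log2FC -0.93 ± 0.26, adjusted p = 0.0197). SF3B4, which contacts RNA upstream of the branch point, fell as well (log2FC -0.55 ± 0.17, adjusted p = 0.0431). Its call was lost in 5 of the 6 fits with 1 library left out. SRSF8, which arose as a retrogene of SRSF2 and has 1 exon (11:95066919-95071225), rose by a log2FC of 0.58 ± 0.19 (adjusted p = 0.0493), a call that was lost in 5 of the 6 fits with 1 library left out. PRPF40B, a relative of a U1 snRNP protein, rose by 0.49 ± 0.16 (adjusted p = 0.0413), with 677, 664 and 634 normalized counts in control and 1205, 864 and 706 in oxaliplatin samples. The 1205 was the library of low mitochondrial share, and the call of PRPF40B was also lost in 5 of the 6 fits.

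The number of calls in HCT116 oxpl-R depended on single libraries. Without the library of low mitochondrial share, 15 members were called, of which 10 were shared: HNRNPDL, HNRNPF, HNRNPH3, PRPF40B and SF3B4 were lost, and HNRNPA0, HNRNPM, HNRNPU, HNRNPUL1 and PRPF19 were gained. It was 8 without replicate 1 and 7 without replicate 2 of HCT116 oxpl-R control, and 8 without replicate 2 of HCT116 oxpl-R oxaliplatin. HNRNPA2B1, HNRNPAB, HNRNPH1, HNRNPR and SRSF2 were called in each of these fits. Replicate 2 of the oxaliplatin group was the lowest for several hnRNPs, with 6539 normalized counts of HNRNPA1 against 20209 and 26453 in its partners, and 2016 of HNRNPD against 4829 and 4443. HNRNPA1 was not called here (log2FC -0.71, adjusted p = 0.234), with 25877, 23403 and 37916 in control samples.

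With doxycycline in both groups of HCT116 oxpl-R, oxaliplatin left 2 members called, both lower, while 2.4% of all genes fell and 3.33% rose. HNRNPL, which binds CA repeats, changed by -0.45 ± 0.13 (adjusted p = 0.0491) and HNRNPR by -0.68 ± 0.20 (adjusted p = 0.0464). HNRNPR had 7059, 9028 and 5504 normalized counts in E1A and 4832, 5097 and 3574 in E1A + oxaliplatin samples, and the groups did not overlap. Both calls rested on single libraries, with 0 to 2 members called when 1 was left out. In these groups the deviations of samples with the same replicate number were correlated, but the labels state no pairing. The p-values given come from the fit without pairing. With the replicate as a block 3 members were called. All 20 HNRNP genes were again below 0, with a median of -0.46 against -0.01 over all genes.

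The response to oxaliplatin differed between the lines for 2 of the 52 members, both subunits of SF3B, against 8.43% of all genes. SF3B5 rose in HCT116 (1.03 ± 0.22) and had a log2FC of -0.02 ± 0.22 in HCT116 oxpl-R (adjusted p = 0.971), a difference of -1.06 ± 0.31 (adjusted p = 0.0332). In HCT116 oxpl-R it had 4142, 6345 and 5455 normalized counts in control and 3368, 5742 and 6575 in oxaliplatin samples, with overlap. SF3B4 had a log2FC of 0.25 ± 0.17 in HCT116 (adjusted p = 0.295) and -0.55 ± 0.17 in HCT116 oxpl-R, a difference of -0.80 ± 0.25 (adjusted p = 0.0448). Its control samples had 5449, 5212 and 6636 normalized counts in HCT116 and 5026, 4783 and 5162 in HCT116 oxpl-R. After oxaliplatin it had 6706, 6877 and 6923 against 2963, 3860 and 3379. The lines were thus separated for SF3B4 after the drug by a wide margin.

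Both differences stood close to the threshold. Without the library of low mitochondrial share neither was called and PRPF19 was gained. Over the libraries left out in turn 0 to 2 members were called. At an unadjusted p below 0.05, 7 members differed. Of the genes that fell, 9 fell in both lines, which is 9 of 19 in HCT116 and 9 of 13 in HCT116 oxpl-R: HNRNPA2B1, HNRNPA3, HNRNPD, HNRNPDL, HNRNPF, HNRNPH1, HNRNPH3, HNRNPR and SRSF1. These are 17.3% of the members tested, and 1.88% of all genes fell in both lines. HNRNPA2B1, HNRNPH1 and HNRNPR were the 3 that were called in both lines whichever library was left out. For SRSF5, which fell in HCT116 and had a log2FC of -0.12 in HCT116 oxpl-R, the difference was not called.

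**Figure D3:**
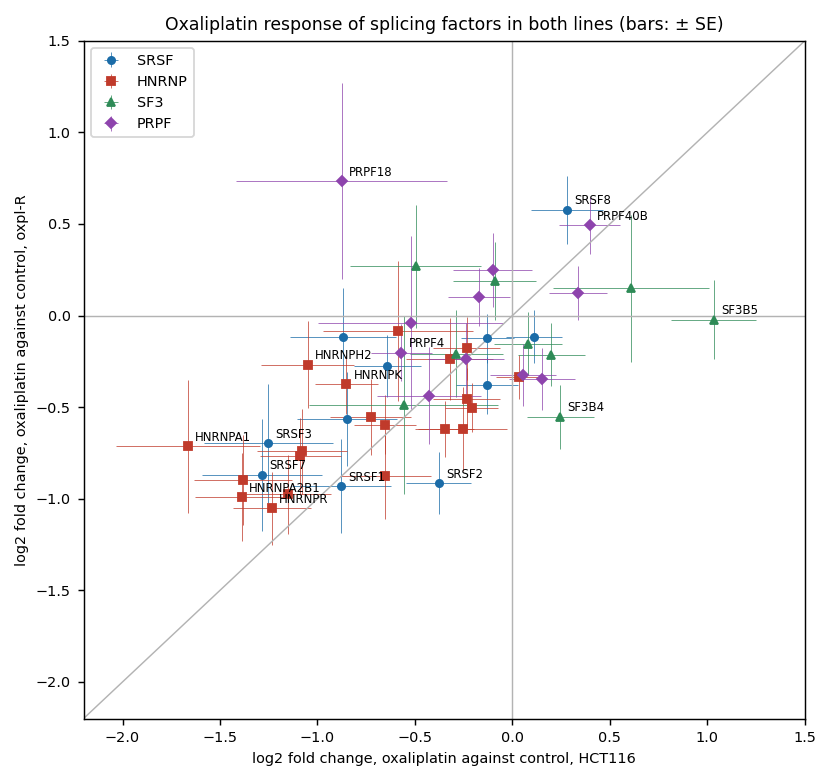
Log2FC after oxaliplatin in HCT116 (x axis) and in HCT116 oxpl-R (y axis) for the tested members except 1, colored by family, with SE as bars. SF3B5 lies to the right near 0 on the y axis (1.03 and -0.02), and most HNRNP genes lie below 0 on both axes.

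The resistant line itself had lower levels of several core factors, relative to its library, before any agent was added. The paper reports a near-tetraploid karyotype and larger cells in this line. Amounts of mRNA per cell therefore cannot be read from these levels. In untreated HCT116 oxpl-R 11 members were lower than in HCT116 and 0 were higher, against 12.0% and 13.7% of all genes. The medians were -0.51 for SF3, -0.30 for HNRNP, -0.25 for PRPF and 0.11 for SRSF, beside 0.03 over all genes. The 11 were HNRNPA3, HNRNPD, HNRNPH3, HNRNPL, HNRNPU and HNRNPUL1, PRPF4 and PRPF8, and SF3A1, SF3B2 and SF3B3. These samples were also the controls of the oxaliplatin comparisons.

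PRPF8 (17:1650629-1684867, minus strand, 43 exons) had 15046, 14961 and 17902 normalized counts in HCT116 control and 8397, 8420 and 8691 in HCT116 oxpl-R control samples. All 3 samples of the resistant line lay far below the lowest parental sample, with a log2FC of -0.91 ± 0.17 (adjusted p = 0.00047). PRPF4 (9:113275642-113294009, 14 exons) had 3418, 3342 and 3353 against 1942, 2025 and 1912 (log2FC -0.78 ± 0.16, adjusted p = 0.000795). HNRNPD, also known as AUF1 (4:82352498-82374503, minus strand, 9 exons), had 13513, 13355 and 15794 against 7669, 7446 and 5584 (log2FC -1.04 ± 0.23, adjusted p = 0.00232). Its neighbour HNRNPDL, on the same chromosome at 82422565-82430462, had a log2FC of -0.21 and was not called (adjusted p = 0.486).

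SF3B3, a large SF3B subunit (16:70523791-70577670, 26 exons), had 8802, 7934 and 7816 normalized counts in HCT116 and 6076, 5063 and 4018 in HCT116 oxpl-R control samples (log2FC -0.70 ± 0.24, adjusted p = 0.0399). SF3B2 (-0.61) and SF3A1 (-0.51) were lower as well. With 1 library left out at a time, the call of SF3B2 was lost in 6 of 6 fits, and those of SF3A1 and SF3B3 in 5. SF3B1, the target of splicing inhibitors, had 6706, 6706 and 5276 against 2583, 2686 and 7270. Replicate 3 of the resistant line lay above the parental samples, and the gene was not called (log2FC -0.58, adjusted p = 0.42). HNRNPD, HNRNPL, HNRNPUL1, PRPF4 and PRPF8 were called whichever library was left out, and 6 or 7 members were called in each such fit. Fitted on the 2 control groups alone, 20 members were called, 3 higher and 17 lower.

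Between the lines after oxaliplatin, 15 members were lower in the resistant line and 3 were higher, against 22.8% and 21.9% of all genes. PRPF8 again led the lower genes, with 14745, 15114 and 19922 normalized counts in HCT116 and 6684, 6771 and 6888 in HCT116 oxpl-R (log2FC -1.29 ± 0.17, adjusted p = 4.59e-06). HNRNPD had 8642, 8636 and 9854 against 4829, 2016 and 4443 (log2FC -1.27 ± 0.24, adjusted p = 0.0002). HNRNPUL1, a nuclear protein that binds RNA and takes part in DNA repair, had 12224, 12098 and 11752 against 7650, 6823 and 6373 (log2FC -0.79 ± 0.12, adjusted p = 2.3e-05). None of these overlapped. SF3B4 led the lower SF3 genes (log2FC -1.01 ± 0.18, adjusted p = 9.8e-05), which also held SF3A1 (-0.75), SF3A2 (-0.88), SF3B3 (-0.62) and SF3B5 (-1.004), and the family median was -0.64. SRSF4, an SR protein with a long arginine and serine rich domain, was the one lower SRSF gene (-0.52 ± 0.16, adjusted p = 0.0119). The other lower genes, HNRNPL, HNRNPM, HNRNPU, PRPF4, PRPF19 and PRPF31, had log2FC of -0.76 to -0.41.

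The 3 higher genes were SRSF5, HNRNPH2 and SRSF8. SRSF5 (14:69726900-69772005, 8 exons), an SR protein that promotes the inclusion of exons, had 2061, 2543 and 2528 normalized counts in HCT116 and 6215, 7620 and 6249 in HCT116 oxpl-R (log2FC 1.49 ± 0.27, adjusted p = 0.000172). HNRNPH2 (X:101408222-101414133, 2 exons) had 1024, 1268 and 1422 against 2502, 3583 and 3022 (log2FC 1.29 ± 0.24, adjusted p = 0.00019). SRSF8 had 2467, 2268 and 1434 against 3024, 3880 and 3486 (log2FC 0.75 ± 0.19, adjusted p = 0.00277). None of the 3 overlapped between the lines. Without the library of low mitochondrial share 22 members were called, the 18 among them, and HNRNPA0, HNRNPAB, SF3B2 and SRSF9 were gained.

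After doxycycline, HCT116 oxpl-R had 11 members below and 2 above HCT116, against 12.3% and 13.7% of all genes. PRPF8 had 16639, 17744 and 14857 normalized counts in HCT116 and 9347, 9023 and 7213 in HCT116 oxpl-R (log2FC -0.95 ± 0.17, adjusted p = 0.000397). HNRNPD had 14065, 15751 and 12695 against 7742, 9929 and 6230, with no overlap (log2FC -0.83 ± 0.23, adjusted p = 0.0123). SF3B3 (log2FC -0.76 ± 0.24, adjusted p = 0.0268), SF3A1 (-0.69), SF3A2 (-0.56) and SF3B2 (-0.67) were the lower SF3 genes, and PRPF4, PRPF31, HNRNPL, HNRNPU and HNRNPUL1 had log2FC of -0.66 to -0.39. SRSF5 was called higher (0.87 ± 0.27, adjusted p = 0.0245), but its samples overlapped, at 2686, 3247 and 3969 against 3909, 7995 and 6156. HNRNPH2 was the other higher gene (0.72 ± 0.24, adjusted p = 0.0306), with 2188, 2157 and 1968 against 2811, 4779 and 2778. Only 3 members were called without replicate 2 of HCT116 E1A, 5 without its replicate 1, 6 without replicate 3 and 8 without replicate 2 of HCT116 oxpl-R E1A, and HNRNPUL1, PRPF4 and PRPF8 were in each of these fits.

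After both agents 12 members were lower and 3 higher, against 18.4% and 16.6% of all genes. All 9 SF3 genes were below 0, with a median of -0.60. PRPF8 had 19022, 11976 and 12188 normalized counts in HCT116 and 6727, 6734 and 5437 in HCT116 oxpl-R (log2FC -1.19 ± 0.17, adjusted p = 2.11e-05). HNRNPD had 10216, 9322 and 9533 against 5276, 4978 and 3945 (log2FC -1.03 ± 0.23, adjusted p = 0.00185). Both were lower in every sample of the resistant line. SF3B2 led the lower SF3 genes (-0.76 ± 0.21, adjusted p = 0.00971), with SF3A1 (-0.67) and SF3B4 (-0.64). HNRNPA0, HNRNPL, HNRNPM, HNRNPUL1, PRPF4, PRPF19 and PRPF31 had log2FC of -0.65 to -0.49. The higher genes were HNRNPH2 (1.02 ± 0.24, adjusted p = 0.00229), SRSF5 (0.93 ± 0.27, adjusted p = 0.0117) and SRSF8 (0.59). SRSF5 had 1942, 3865 and 3564 normalized counts in HCT116 and 5519, 8157 and 4219 in HCT116 oxpl-R, with no overlap. Without replicate 1 of HCT116 E1A + oxaliplatin or replicate 2 of HCT116 oxpl-R E1A + oxaliplatin 9 members were called. Fitted on the 2 groups alone, 8 were called.

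Across the 4 comparisons of the lines, which use separate samples, 6 genes were lower each time: HNRNPD, HNRNPL, HNRNPUL1, PRPF4, PRPF8 and SF3A1. They are 11.5% of the members tested, against 7.24% of all genes. The call of SF3A1 in untreated cells was lost in 5 of 6 fits with 1 library left out, and HNRNPUL1 and PRPF8 were the 2 that were called in all 4 comparisons whichever library was left out. In at least 1 comparison 19 members were lower (36.5%, against 28.1% of all genes) and 3 were higher (5.77%, against 29.5%), and no member was called in both directions. HNRNPH2 and SRSF5 were higher in 3, and in the untreated cells they had log2FC of 0.51 (adjusted p = 0.118) and 0.74 (adjusted p = 0.0511). HNRNPH2 had 2842, 2598 and 2249 normalized counts in HCT116 control and 3889, 4285 and 2793 in HCT116 oxpl-R control samples. SRSF5 had 4595, 4596 and 3838 against 8698, 7220 and 5870. The lowest resistant sample of HNRNPH2 lay within the parental range, while SRSF5 had no overlap and still did not pass the test.

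None of the 5 comparisons of doxycycline called a member, 0 of 52 in each with edgeR. Of all genes it changed 0.865% in HCT116, 0.126% in HCT116 with oxaliplatin, 0.495% in HCT116 oxpl-R and 3.15% in HCT116 oxpl-R with oxaliplatin, and the difference of its effect between the lines was called for 0.00698%. Over the 5 together, 1 member passed an unadjusted p below 0.05: SF3B2, a subunit that anchors U2 snRNP to pre-mRNA. It passed in 1 of them, HCT116 oxpl-R with oxaliplatin (log2FC -0.55 ± 0.21, adjusted p = 0.209). DESeq2 called 0 as well. The fitted values lay between -0.68 and 0.21 in HCT116 and between -0.525 and 0.21 in HCT116 oxpl-R, with a median SE of 0.205 and a highest SE of 0.538. None of these values was called, so changes of this size could be missed.

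Some members nonetheless had separate samples, and those given here were picked after their values were seen. How many of all genes had separate samples was not counted. HNRNPA1 had 24731, 27397 and 32040 normalized counts in HCT116 E1A samples, all below the 35933 to 44972 of the controls (log2FC -0.55, not called). SRSF7 had 3225, 2889 and 4438 there, below the 5054 to 6008 of the controls (log2FC -0.63, not called). Fitted on these 2 groups alone, 21 of 52 members had an unadjusted p below 0.05. Of these 5 were called, among them HNRNPA1, HNRNPA2B1, HNRNPDL and HNRNPLL, all lower. This is the one doxycycline comparison in which the choice of samples gave calls. In the fit of all 8 groups 0 of 52 members had an unadjusted p below 0.05 in it. Shares of all genes in the fit of the 2 groups are not given here.

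Members of 1 gene pair did not always move alike. Among 11 pairs of close relatives, SRSF2 and SRSF8 were the only pair called in opposite directions in the same comparison, after oxaliplatin in HCT116 oxpl-R (-0.92 and 0.58), where the call of SRSF8 was lost in 5 of 6 fits with 1 library left out. HNRNPH1, whose product is nearly the same in sequence as that of HNRNPH2, had a log2FC of -0.001 ± 0.22 between the lines after oxaliplatin, beside 1.29 ± 0.24 for HNRNPH2. HNRNPH1 had 6802, 7115 and 7335 normalized counts in HCT116 and 7723, 5226 and 8295 in HCT116 oxpl-R oxaliplatin samples. In the same comparison HNRNPUL1 was at -0.79 and HNRNPUL2 at -0.08, HNRNPL at -0.76 and HNRNPLL at -0.28, and SRSF4 at -0.52 and SRSF6 at -0.10. The difference within a pair was not tested. Reads shared by close relatives are divided among them by estimation, so these values are less certain than those of single-copy genes.

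Processed pseudogenes are numerous for some members. HNRNPA1 has 74 listed pseudogenes, which together held 0.06 to 0.42% of its counts in a sample, and the highest such share in any sample was 0.461%, for PRPF38A.

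Other genes of the splicing machinery were counted in the same way. Beside the members, 111 genes of 5 lists were tested: kinases and phosphatase partners of SR proteins (10), other splicing regulators (41), core snRNP proteins (31), the PRPF19 complex and later steps (18), and nonsense-mediated decay with the exon junction complex (12), with RNPS1 in 2 of them. Of the 111, 22 were lower and 2 higher in untreated HCT116 oxpl-R, where 12.0% and 13.7% of all genes were. The lower genes were 2 kinases, 11 regulators, 6 snRNP proteins, 2 of the PRPF19 complex list and 2 of the decay list. The higher ones were CLK1 (1.06) and CLK4 (0.93), kinases that phosphorylate SR proteins, while the SR protein kinase SRPK1 was lower (-0.66). SNRNP200 (-1.03) and EFTUD2 (-1.002), the helicase and the GTPase that sit beside PRPF8 in the U5 snRNP, were lower, as PRPF8 was. MBNL1 (-0.91) and RNPS1 (-0.79) were the lowest of the regulators. After oxaliplatin 34 of the 111 genes were lower and 11 higher between the lines (22.8% and 21.9% of all genes), and 37 and 13 of 112 without the library of low mitochondrial share. After doxycycline 23 were lower and 4 higher (12.3% and 13.7% of all genes), and after both agents 30 and 3 (18.4% and 16.6%).

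After oxaliplatin in HCT116 23 of these genes fell and 7 rose, against 11.9% and 19.9% of all genes. The regulators FUBP1 (-1.27) and SYNCRIP (-1.09), the core proteins SNRPD1 (-1.25) and DHX15 (-1.23), and PPIL1 (-1.09) of the PRPF19 complex list fell. SNRPB (0.58), a protein of the Sm ring, and LSM4 (0.55) rose. By list, 3, 10, 4, 4 and 2 fell. In HCT116 oxpl-R 11 fell, among them PCBP2 (-1.25), RBMX (-1.01) and SNRPB (-0.59), and 1 rose, ESRP2 (0.46), against 5.72% and 6.9% of all genes. Without the library of low mitochondrial share 13 fell and 1 rose, PCBP2, RBMX and SNRPB were called and ESRP2 was not (adjusted p = 0.113). The response differed between the lines for 8, against 8.43% of all genes, 7 of them with a lower value in HCT116 oxpl-R, including SNRPB (-1.17) and PCBP2 (-1.31). Without that library it was 11 lower and 3 higher, these 2 genes among them. With doxycycline present 4 fell and 0 rose in HCT116, against 6.43% and 10.8% of all genes. In HCT116 oxpl-R 4 fell and 1 rose with doxycycline present, against 2.4% and 3.33% of all genes.

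The members share features that their symbols do not define. In untreated cells the log2FC between the lines was lower for members with more exons, with Spearman's rho of -0.63 across 52 members and -0.23 across 14136 genes. Exons were counted on the canonical transcript of GENCODE 44, and genes within these libraries are not independent. PRPF8, with 43 exons, had a log2FC of -0.91, and SRSF8 and SF3B5, with 1 exon each, had 0.45 and 0.05. Other members departed from this order. HNRNPA0, also with 1 exon, had 12134, 12898 and 14680 normalized counts in HCT116 and 12657, 13754 and 9840 in HCT116 oxpl-R control samples. PRPF40B, with 26 exons, had 696, 635 and 701 against 677, 664 and 634. After oxaliplatin in HCT116, rho with the span of the gene was 0.0 for the members and -0.37 for all genes, and rho with exon number was 0.07 and -0.22. Between the lines after oxaliplatin, rho with exon number was -0.20 for the members and -0.01 for all genes, and rho with the span 0.02 and 0.14, while in untreated cells rho with the span was -0.33 and -0.13.

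The members lie on many chromosomes. Karyotype changes of the resistant line were a subject of the study, so the median of each chromosome is given beside the member. In untreated cells HNRNPD was at -1.04 with a median of -0.22 over chromosome 4, PRPF8 at -0.91 with -0.12 over chromosome 17, and PRPF4 at -0.78 with 0.15 over chromosome 9. SF3B3 was at -0.70 with -0.22 over chromosome 16. After oxaliplatin the median over chromosome 19 was -0.36, and the lower members there, HNRNPL, HNRNPM, HNRNPUL1, PRPF31 and SF3A2, were at -0.59 to -0.88. HNRNPH2 was at 1.29 with 0.295 over the X chromosome. The part of gene dosage in these values was not tested.

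In none of the 14 comparisons were 15 members called, 28.8% of those tested beside 32.1% of all genes, among them HNRNPC, HNRNPLL, HNRNPUL2, PRPF3, PRPF6, PRPF18, PRPF38A, PRPF38B, PRPF39, SF3A3, SF3B1, SF3B6, SRSF6 and SRSF9. They include both steady and variable genes. SRSF6 lay at 8970 to 13387 normalized counts over the 24 samples, and its highest sample was 1.49 times the lowest. PRPF38A lay at 1097 to 1790 (1.63 times), SRSF9 at 7044 to 12284 and HNRNPUL2 at 2258 to 4038. HNRNPC, in contrast, lay at 8039 to 53273 (6.63 times), SF3A3 at 1162 to 4286 and PRPF39 at 176 to 796. The ratio was 7.06 for PRPF18, against 7.84 times for HNRNPD and 6.88 times for HNRNPA1, which were called. PRPF18, a factor of the second catalytic step, had 614, 331 and 1033 normalized counts in HCT116 oxpl-R and 190, 308 and 316 in HCT116 oxaliplatin samples. These did not overlap, and the log2FC of 1.28 did not pass the test (adjusted p = 0.0613).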

How the data were processed

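Libraries of mRNA of 24 cultures were sequenced. The authors used Trimmomatic for trimming, Salmon 1.6.0 for quantification on GENCODE 47 transcripts of GRCh38, with its sequence and GC corrections, and tximport to obtain values per gene; the submitters' notes also name DESeq2. The deposited values are estimated counts that were not normalized. One table of estimated counts held 33113 genes and ended at SETP6. A second deposited table of 37967 genes is named as TPM, but its columns sum to 28004261 to 42613322 and follow the estimated counts, so it was read as length-scaled estimated counts, which differs from the unit assumed when the analysis was planned. It served for the SRSF and SF3 genes (21 members), and the first table for the HNRNP and PRPF genes (32 members). The last line of either file was cut short, and these 2 were left out. The tables held 0 value columns of no sample.

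Values, of which 15.9 to 30.4% in a sample were not whole, were rounded and fitted in R 4.3.3 with edgeR 4.0.16 (TMM, filterByExpr, quasi-likelihood test, all 8 groups with 1 fit for each file). p-values were adjusted by the Benjamini-Hochberg method over the 12009 and 14550 genes tested in the tables, and a gene was called below 0.05. A normalized count is a count scaled by the TMM library size to the mean of all libraries. Log2FC values have their SE. Members that led a family in a comparison by size of change among those called are described by sample, at most 3 a family, and sample values of other members were chosen after they were seen. Samples are labelled as biological replicates, and the p-values measure the spread between them. Alternatives used RLE or no scaling factors, no filter, DESeq2 1.42.0, limma 3.58.1 on log2(value + 1), the compared groups alone, the replicate number as a block, and each library left out. Every correlation of the deviations of samples with the same number was above 0.1 only between HCT116 oxpl-R E1A and E1A + oxaliplatin (correlations of 0.209 to 0.353 over 3 pairs, and 0.156 to 0.268 in the second table). These samples may be paired, but their labels do not state it. The reported fits did not pair them. Promoters came from RefSeq (GRCh38.p14) and positions from GENCODE 44. The fits were tested on simulated data first. The members and lists were chosen with earlier results of these data known. The values of 1 member are not reported here, although it stays in the counts.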

Additional observations from a re-analysis of the deposited data

Results flagged for a closer look

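The response to oxaliplatin differed between HCT116 and HCT116 oxpl-R for 2 members by the interaction term of the edgeR fit. For SF3B5 the difference of log2FC was -1.06 (adjusted p = 0.0332), and oxaliplatin samples were higher than control samples in 3 of 3 in HCT116 while the groups overlapped in HCT116 oxpl-R. For SF3B4 the difference was -0.80 (adjusted p = 0.0448), and 3 of 3 oxaliplatin samples of HCT116 oxpl-R were below its control samples. With 1 library left out at a time, the call of SF3B4 was lost in 10 and that of SF3B5 in 8 of 12 fits, and neither passed the threshold in 7 of them.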

How the results depend on the processing

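No called member changed direction under the alternatives run. Of 236 counts of called members under them, 188 stayed within 1.5 times the reported count and 48 did not. The largest called change of each family, direction and comparison gave 32 leading values, several of them from the same gene. Under the alternatives these 32 gave 486 values, of which 392 kept their side of the threshold and 94 lost their call. With 1 library left out at a time, the members called numbered 6 to 7 in untreated cells, 13 to 22 after oxaliplatin, 3 to 13 after doxycycline and 9 to 16 after both agents for the lines, 16 to 24 for oxaliplatin in HCT116 and 3 to 9 with doxycycline, 7 to 15 for oxaliplatin in HCT116 oxpl-R and 0 to 2 with doxycycline, 0 to 2 for the difference of the oxaliplatin response and 0 for doxycycline. Fitted on the compared groups alone, with fewer samples to estimate the spread, 20 members were called between untreated lines, 8 after both agents, 5 for doxycycline in HCT116, 5 for oxaliplatin in HCT116 oxpl-R (4 shared), 0 with doxycycline there and 1 for the difference of the response. With library size alone, which moved the median of all genes by up to 0.159, 11 were called for oxaliplatin with doxycycline in HCT116, 0 in HCT116 oxpl-R and 1 for the difference of the response. For these last comparisons RLE factors gave 1 and 1, every gene with a count 0 and 0, DESeq2 7 members in HCT116 oxpl-R with doxycycline, and a minimum size of 0.5 on the log2 scale 1. The cause of these changes was not tested.

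With the replicate number as a block 16, 19, 14 and 18 members were called for the lines (untreated, oxaliplatin, doxycycline, both), 22 and 8 for oxaliplatin in HCT116 without and with doxycycline, 18 and 3 in HCT116 oxpl-R, 2 for the difference of the response and 0 for doxycycline, and no reported call was lost. The labels state no pairing, and the samples share only a number. The 2 tables differed in the log2FC of a member by a median of 0.021 to 0.068 over the comparisons, and by at most 0.417, for PRPF38A. Each group held 3 samples, and the totals of 24838095 or more counts limit precision less than the spread between them.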

Other observations

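Targets of E2F, the factor that E1A is known to release from the retinoblastoma protein, are a measure of S phase entry beside the splicing factors. After oxaliplatin 5 of 7 fell in HCT116 oxpl-R (median log2FC -1.80) and 2 of 7 in HCT116 (median -0.33), where 5.72% and 11.9% of all genes fell. Without the library of low mitochondrial share 3 of 7 fell in HCT116 oxpl-R (median -1.69). With doxycycline added to oxaliplatin, 4 of 7 rose in HCT116 oxpl-R (median 1.22, and 4 of 7 with a median of 1.19 without that library), a comparison that uses the same oxaliplatin samples, and 0 of 7 in HCT116 (median 0.13). Doxycycline changed 3.15% of all genes in the first of these and 0.126% in the second. Doxycycline alone changed 0 of 7 in either line. In the comparison with the 4 rising E2F targets, 0 of 52 splicing factors were called, and their log2FC lay between -0.717 and 0.356. LSM2, a ring protein of U6 snRNA, was the 1 gene of the other splicing lists that rose there (0.50, adjusted p = 0.0429), and it was not called without that library (adjusted p = 0.146).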
